A study of Mus musculus with 9 samples.

Results

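The genes described here lie on mouse chromosome 12 and start before 95 Mb (position 95000000, build GRCm38). They were taken from the union of the authors' 3 deposited tables, 1 for each pair of groups, which hold only genes the authors called changed. That gave 331 genes of the 8742 listed in all, with 82 listed genes on chromosome 12 after 95 Mb and 8017 on the other autosomes. RNA was measured in bulk from 9 libraries of mouse esophageal organoids, which are small epithelial structures grown from tissue in a gel, collected 7 days after seeding. The 3 wild type (WT) libraries were unedited, the 3 PN libraries carried the label Trp53;Notch1 KO, and the 3 PCN libraries carried the label Trp53;Cdkn2a;Notch1 KO. PN and PCN thus share the first and the last of these labelled knockouts, and differ in the label by Cdkn2a. The labels give treatment as none and name no strain, sex, age or batch, and they do not say whether an edited group is 1 clone or whether its libraries came from separate cultures. The spread between libraries may therefore be technical, and a PCN value belongs to that group and its culture, which cannot be told apart.

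All 3 tables chose the members by their values in these libraries, so every count, median and fold change below is a description and carries no test. A gene that the authors called in none of the 3 pairs cannot be seen, and in particular a member at the same level in PCN and PN is present only because another pair listed it. The authors' deposited table for PCN against PN lists 270 of the members, the one for PCN against WT 295 and the one for PN against WT 167, and 102 members stand in all 3. The members comprise 291 protein-coding genes, 11 pseudogenes and 29 other transcripts. In GENCODE M21 the same stretch holds 452 protein-coding genes, of which 64.4% were listed, while 38.7% of the 191 protein-coding genes after 95 Mb were. The first member starts at 3235504 and the last at 91806043. DNA was not measured in the files used here.

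Genes of a chromosome stretch share their position and mostly not their function. A gene's RNA level depends on the number of its copies, on its own promoter and on how fast the RNA is broken down. Trp53 encodes the p53 tumour suppressor, Notch1 a receptor that drives squamous differentiation in the esophagus, and Cdkn2a a pair of cell cycle inhibitors, p16 and ARF.

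Reads per library, recovered from the deposited values, ranged from 14695420 to 15093994 for WT, from 16857744 to 18912526 for PN and from 17422590 to 20198041 for PCN, and levels are given in CPM, which are read counts scaled by that total. In WT, Trp53 lay at 118 to 121 CPM, while PN had 2.27 to 3.24 and PCN 2.53 to 3.96. For Notch1 the ranges were 213 to 277, 140.5 to 154 and 66.5 to 76.9 CPM in the same order. Cdkn2a was highest in the group labelled as its knockout, with 62.4 to 70.2 CPM in PCN, 21.5 to 22.7 in PN and 6.49 to 10.3 in WT, so PCN is used here as a label. RNA level alone does not show whether a protein is made. All 9 esophageal epithelial markers (Krt5, Krt14, Krt15, Krt13, Krt4, Trp63, Cdh1, Epcam and Dsg3) were listed, and the 8 with counts in all libraries had a summed level from 31152 to 33238 CPM in WT, while the sum was 8970 to 9308 for PN and 10616 to 11014 for PCN. None of the 6 fibroblast markers and none of the 5 muscle and glia markers was listed, 1 of 5 leukocyte markers was (Cd68, 15.04 to 119 CPM over all libraries) and 1 of 5 endothelial markers (Esam, 4.55 to 11.7 CPM). An unlisted marker may still be expressed, at a level the authors did not call changed. The part of the differences in listed markers in the values below was not tested. WT replicate 3 stood apart from the other WT libraries, with a chi-square per gene of 30.3 and 20.9 against them, where the other pairs of one group gave 3.56 to 10.6. The shifts, call counts, departures and list medians that use WT are given with and without it.

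The promoters of 5 members are shown because these genes mark the range of behaviour along the stretch: Sel1l, the last member before the threshold, had a fold change close to the median of the stretch, Papln and Nfkbia were as high or higher in PCN than in PN, and Ism2 and Prkd1 were far lower there. Each line gives the 250 bases before the RefSeq start of the gene on its own strand, 5′ to 3′, from RefSeq with build GRCm38.p6. Capitals mark matches on either strand to 6 motifs: the E-box CACGTG, the AP-1 site TGANTCA, the GC box GGGCGG, the TATA box TATAAA, the CCAAT box CCAAT and the NF-kB site.
Sel1l, chr12:91849158-91849407, minus strand: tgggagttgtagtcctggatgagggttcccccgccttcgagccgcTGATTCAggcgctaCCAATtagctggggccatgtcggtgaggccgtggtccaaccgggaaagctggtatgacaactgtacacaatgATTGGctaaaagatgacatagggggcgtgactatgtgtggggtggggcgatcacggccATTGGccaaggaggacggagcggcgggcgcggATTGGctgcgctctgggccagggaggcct
Papln, chr12:83763384-83763633, plus strand: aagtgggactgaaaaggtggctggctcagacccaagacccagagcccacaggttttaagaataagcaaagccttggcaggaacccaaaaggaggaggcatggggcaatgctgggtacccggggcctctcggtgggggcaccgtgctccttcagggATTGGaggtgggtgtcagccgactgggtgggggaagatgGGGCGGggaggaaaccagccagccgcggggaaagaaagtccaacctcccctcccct
Nfkbia, chr12:55492648-55492897, minus strand: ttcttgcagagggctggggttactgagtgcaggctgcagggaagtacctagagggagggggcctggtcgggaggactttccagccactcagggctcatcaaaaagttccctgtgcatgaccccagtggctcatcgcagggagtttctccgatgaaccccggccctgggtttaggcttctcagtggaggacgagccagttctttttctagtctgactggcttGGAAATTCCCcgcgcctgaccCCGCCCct
Ism2, chr12:87299706-87299955, minus strand: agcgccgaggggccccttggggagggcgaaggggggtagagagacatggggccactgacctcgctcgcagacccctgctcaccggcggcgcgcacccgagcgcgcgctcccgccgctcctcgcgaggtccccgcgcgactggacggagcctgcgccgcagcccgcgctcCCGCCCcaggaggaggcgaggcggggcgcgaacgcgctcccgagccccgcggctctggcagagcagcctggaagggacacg
Prkd1, chr12:50649250-50649499, minus strand: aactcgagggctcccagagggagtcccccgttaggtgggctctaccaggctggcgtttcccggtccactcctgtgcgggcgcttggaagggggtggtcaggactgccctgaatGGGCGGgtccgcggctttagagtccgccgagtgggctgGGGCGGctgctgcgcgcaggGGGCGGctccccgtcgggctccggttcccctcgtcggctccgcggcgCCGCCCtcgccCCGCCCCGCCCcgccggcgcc

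The Sel1l window held 4 CCAAT boxes and 1 AP-1 site, the Papln window 1 GC box and 1 CCAAT box, and the Nfkbia window 1 NF-kB site and 1 GC box. The Ism2 window held 1 GC box and the Prkd1 window 6, of which the last 2 overlap by a base. GC boxes stood in 53.0% of 319 promoter windows of 261 members matched by symbol, and in 32.7% of all 32851 RefSeq windows of the same length. CCAAT boxes stood in 36.1% and 33.9%, E-boxes in 7.84% and 6.02%, AP-1 sites in 5.33% and 6.75%, TATA boxes in 5.96% and 12.4%, and NF-kB sites in 0.627% and 0.356%. The member windows and all windows differ in gene type, since most members are protein-coding and expressed in these organoids. A match describes letters and not a bound site. The RefSeq start of Prkd1 lies 151 bases upstream of the gene start in the authors' tables, and those of the other 4 genes coincide with it.

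Members of the stretch were lower in all 3 PCN libraries than in any WT or PN library, as a set. For the 299 members with counts in all 9 libraries, the level of a library was the median log2 ratio to the WT mean, with 0.5 CPM added to both, minus the same median over the other autosomes. That level was -0.03, -0.03 and 0.05 in the WT libraries, 0.04, 0.05 and 0.06 in PN, and -0.95, -0.93 and -0.94 in PCN. The WT and PN libraries overlapped and the PCN libraries stood apart, with group means of -0.0044 ± 0.048, 0.05 ± 0.011 and -0.94 ± 0.011 (SD, n = 3). Chromosome 12 genes after 95 Mb were above the WT level in both edited groups, at 0.43 to 0.47 in PN and 0.38 to 0.40 in PCN, so the 2 sides of the threshold had opposite signs in PCN and the same sign in PN. In the fits against WT, given below, the median log2 fold change of these genes was 0.27 in PN and 0.38 in PCN. Medians of single other autosomes ranged from -0.57 to 0.34 in PN and from -0.42 to 0.28 in PCN. Nothing is therefore read from the sign after 95 Mb. With WT replicate 3 left out of the WT mean, the level of the stretch was 0.09 to 0.10 in PN, above the remaining WT libraries (-0.0059 and 0.0059), and -0.95 to -0.87 in PCN, and the genes after 95 Mb were at 0.40 to 0.45 and 0.35 to 0.39. In bulk RNA, fewer cells that express a gene and less RNA per cell cannot be told apart.

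As a share of all counts, the 299 members with counts in all 9 libraries took 2.46% ± 0.061 in WT, 2.08% ± 0.019 in PN and 1.13% ± 0.025 in PCN (SD, n = 3). That share was lower in PN than in WT while the median PN level stayed close to that of WT, and this came with lower levels of several of the most abundant members, described below. The 64 listed genes after 95 Mb with counts in all 9 libraries took 0.569% in WT, 0.624% in PN and 0.707% in PCN. A share is weighted by abundant genes and a median is not, which is why both are given.

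**Figure D1:**
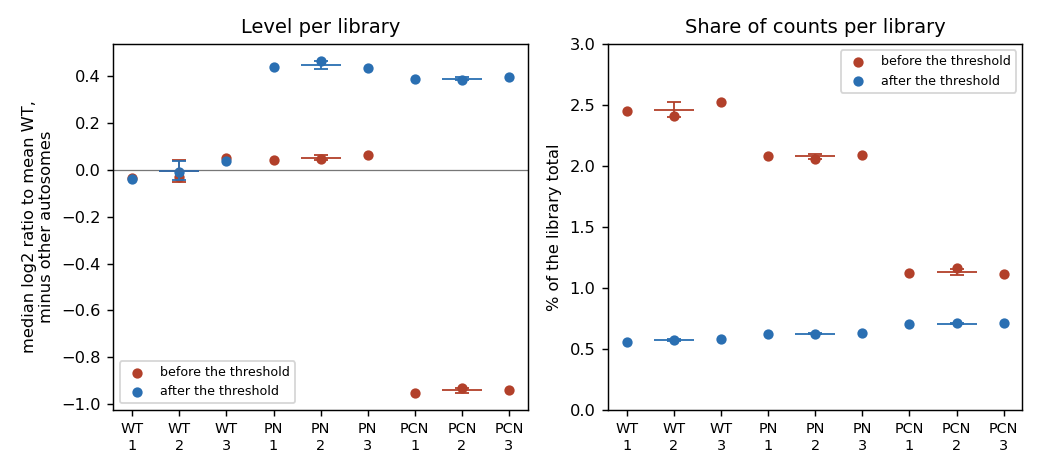
Listed chromosome 12 genes with counts in all 9 libraries, before and after the 95 Mb threshold. Left, their median log2 ratio to the WT mean per library, minus that of the other autosomes. Right, their share of all counts in percent. Points are libraries, bars the mean and SD of 3. The 3 PCN libraries lie between -0.95 and -0.93 before the threshold, and all other libraries at or above -0.03.

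Between PCN and PN, 288 of the 307 members with counts in both groups passed the filter on low counts, 19 did not, and the other 24 stand in no table that gives counts for both groups. Their median log2 fold change, PCN over PN, was -0.90 (quartiles -1.07 and -0.73), a ratio of 0.534. The 66 genes after 95 Mb had a median of 0.07 and the 6261 genes of the other autosomes 0.02, so the shift against the other autosomes was -0.92, a ratio of 0.529. Of the 288, 274 had a fold change below 0 and 14 above. The fit (edgeR's quasi-likelihood test, adjusted p under 0.05) called 274 members, 267 lower and 7 higher, where 54.5% of all genes tested were called, 26.6% lower and 28% higher. All PCN libraries lay below all PN libraries for 265 members and above them for 8, against 30.2% and 31.8% of all genes tested. These contrasts chose the members, so nothing is read from the counts.

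**Figure D2:**
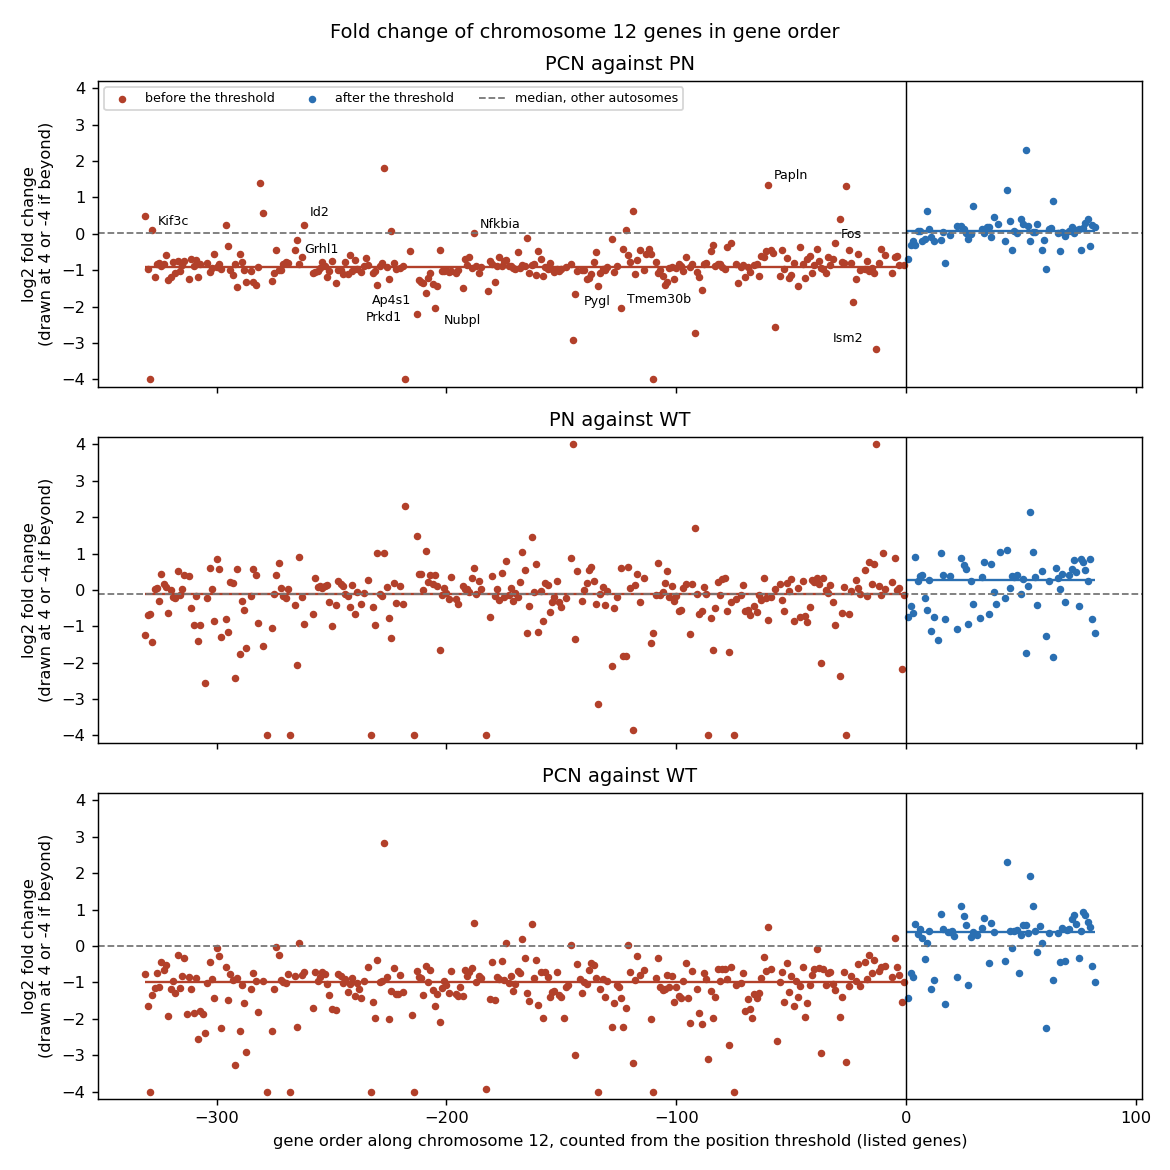
Log2 fold change (y axis) of each listed gene in its order along chromosome 12 (x axis, genes counted from the threshold), for the 3 pairs of groups. Solid lines are the medians before and after the threshold and the dashed line is the median of the other autosomes. In PCN against PN and in PCN against WT the points before the threshold scatter around -0.90 and -1.002, with named departures marked in the first panel.

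The shift was similar along the stretch. In 4 successive blocks of 72 members, the median log2 fold change of PCN against PN was -0.89, -0.94, -0.95 and -0.84, with 66, 69, 70 and 69 members below 0. In 3 classes of 96 members by mean CPM, from low to high, the medians were -0.93, -0.91 and -0.89. In 3 classes by gene length, from short to long, they were -0.92, -0.94 and -0.87, and on the plus and minus strands -0.87 and -0.93. The lowest abundance class had the widest quartiles, from -1.21 to -0.60, against -1.01 to -0.74 in the highest.

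Around its own median the stretch was spread about as the genes after 95 Mb were, and less than the other autosomes together. The authors listed 270 of 331 members for this pair, and 3180 of 8017 genes of the other autosomes. The other autosomes together also include chromosome 14, whose median lay apart. Nothing is therefore read from these differences in spread. The quartiles lay 0.33 apart in the stretch and 0.36 apart after 95 Mb. In single other autosomes they lay from 0.28 (chromosome 14) to 0.48 (chromosome 3) apart. Of the 288 members, 175 (60.8%) lay within 0.25 of the median of the stretch on the log2 scale, compared with 63.6% of the genes after 95 Mb and 54.6% of those of the other autosomes around theirs. Within 2 standard errors of the median lay 158 members (54.9%), 47.0% of the genes after 95 Mb and 38.9% of the genes of the other autosomes. The median standard error was 0.088, 0.071 and 0.073 in the same order. The windows thus differ in width, and nothing is read from these shares. The median over the other 17 autosomes, chromosome by chromosome and without chromosome 14, ranged from -0.04 to 0.09, and that of chromosome 14 was 0.60. With chromosome 14 left out of the reference the shift was -0.90.

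**Figure D3:**
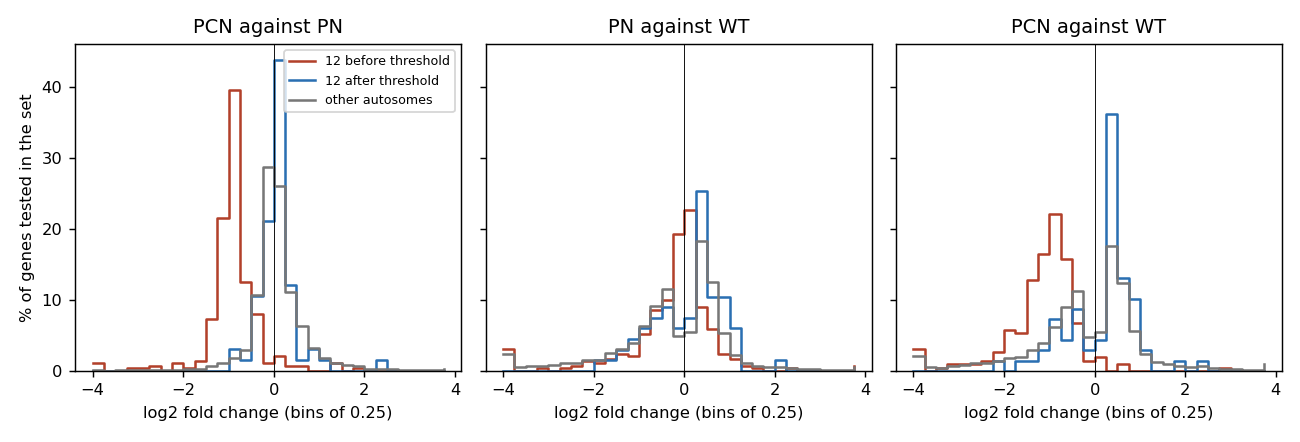
Share of the tested genes of each set (y axis, percent) by log2 fold change in bins of 0.25 (x axis), for the 3 pairs. In PCN against PN the curve of the members peaks near -0.90 and the reference curves near 0. In PN against WT more of the members than of the other autosomes lie near 0. The authors listed 167 of 331 members for that pair and 6091 of 8017 genes of the other autosomes. Nothing is therefore read from the widths of these curves.

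**Figure D4:**
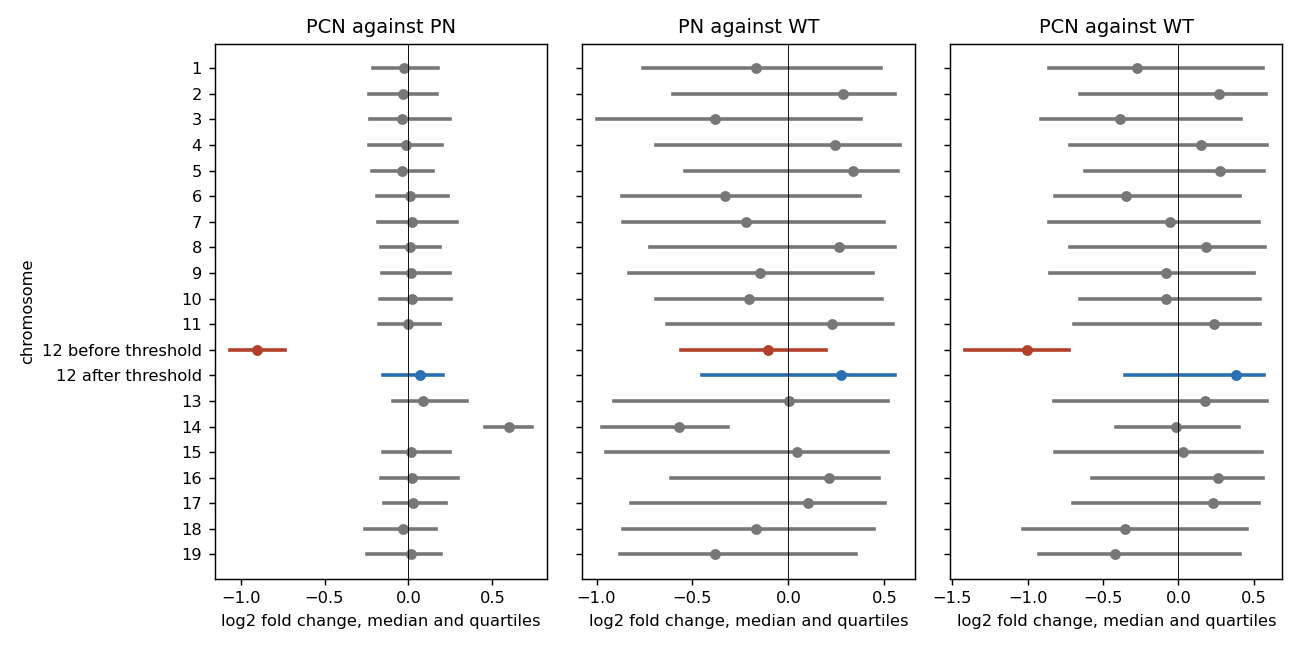
Median (point) and quartiles (line) of the log2 fold change of listed genes by autosome, with chromosome 12 divided at the threshold, for the 3 pairs. In PCN against PN the medians are -0.90 before the threshold, 0.60 on chromosome 14 and -0.04 to 0.09 on the other undivided autosomes.

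Of the 8 members most abundant over all libraries, Sdc1, Rps7, Rab10 and Laptm4a lay within 0.25 of the median of the stretch in PCN against PN, and Gpx2, Egln3, Hif1a and the pseudogene Rpl17-ps3, given further on, did not. Sdc1, a heparan sulfate proteoglycan of the epithelial cell surface, had 2032, 1902 and 1661 CPM in WT, 983, 973 and 928 in PN and 515, 545 and 558 in PCN, a log2 fold change of -0.83 ± 0.04 (fitted value ± SE, as below) from PN to PCN. The 3 groups did not overlap, and both steps were down. Rps7, a protein of the small ribosomal subunit, had 1346, 1178 and 1338 CPM in WT, 813, 817 and 823 in PN and 373, 415 and 387 in PCN. It too was lower at both steps, with -1.06 ± 0.04 for PCN against PN. Gpx2, a glutathione peroxidase of epithelia, had 1084, 1041 and 1029.8 CPM in WT, 1223, 1190.0 and 1205 in PN and 439.6, 477 and 463 in PCN. Its PN libraries were above the WT libraries and its PCN libraries below both, and its log2 fold change of -1.39 ± 0.04 was further from 0 than the median.

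Egln3, a prolyl hydroxylase that marks HIF proteins for breakdown, had 1324, 1199 and 1305 CPM in WT, 437, 425 and 365 in PN and 317, 321 and 267 in PCN. Most of its difference lay between WT and PN (-1.64), and PCN against PN was -0.44 ± 0.09, closer to 0 than the median. Hif1a, the oxygen-regulated transcription factor, had 329, 356 and 430.04 CPM in WT, 553, 553 and 615 in PN and 379, 403 and 360.2 in PCN. It was highest in PN, and the PCN and WT libraries overlapped. Laptm4a, a lysosomal membrane protein, had 377, 367 and 393 CPM in WT, 325, 314 and 330.3 in PN and 183, 202 and 177 in PCN, with -0.79 for PCN against PN. Rab10, a small GTPase of vesicle traffic near the start of the chromosome, had 549.7, 529 and 603 CPM in WT, 339.8, 348 and 349.7 in PN and 178, 182 and 176 in PCN, with -0.95. A value near the median was found at both ends of the stretch, since Sel1l, an endoplasmic reticulum protein of protein quality control at its far end, had 156, 152 and 155 CPM in PN and 83.8, 86.96 and 84.95 in PCN, with -0.86.

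Grouped by role, 6 of 10 lists had every tested member called lower in PCN than in PN. The lists were written from textbook knowledge with earlier results of these data known. Over all genes tested 26.6% were called lower, and over the 288 tested members 92.7%. A list called lower throughout therefore shows the shift of the stretch, and nothing about a role is read from it. All 13 tested chromatin regulators were lower, with a median of -0.91. They included the imitation switch subunit Baz1a (-1.03), Arid4a, a partner of the retinoblastoma protein (-1.20), and the nuclear receptor coactivator Ncoa1 (-1.18), and the value nearest 0 was that of Ylpm1 (-0.42). Baz1a had 82.6, 90.98 and 95.5 CPM in WT, 114, 108 and 119 in PN and 55.6, 58.03 and 53.8 in PCN, so that PCN lay below both other groups. Of that list, Sf3b6 is a splicing factor subunit and Cbll1 a part of the RNA methylation machinery.

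All 16 tested genes of cell cycle and DNA repair were lower, with a median of -0.84. Odc1, the rate-limiting enzyme of polyamine synthesis, had 207, 206 and 261 CPM in WT, 311, 286 and 305 in PN and 105, 125 and 114 in PCN, and at -1.39 it was the lowest of the list. Alkbh1, a nucleic acid demethylase (-0.42), and the centromere protein Cenpo (-0.59) were nearest 0. Rrm2, the small subunit of ribonucleotide reductase, had 98.5, 90.8 and 96.3 CPM in WT, 189, 169 and 178 in PN and 103, 101 and 95.7 in PCN, high in PN and overlapping between PCN and WT. Rrm2 was picked after its values were seen.

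All 12 tested genes of translation and the ribosome were lower (median -0.99), from the nucleolar protein Nol10 (-1.31) and the peptidyl-tRNA hydrolase domain protein Ptrhd1 (-1.28) to Srp54c (-0.68). Srp54c is a near copy of the signal recognition particle genes Srp54a and Srp54b, so its counts may include reads of those. The 12 tested genes of RNA processing were all lower with a median of -0.72. Srsf5, a splicing factor, had 248, 252 and 218 CPM in WT, 194, 210.1 and 169.7 in PN and 165, 149 and 165 in PCN, and the mRNA decay factor Zfp36l1 had 124, 136 and 107, 67.9, 73.5 and 74.7 and 48.1, 55.4 and 52.9. Both were nearer 0 (-0.26 and -0.47) than the translational repressor Pum2 (-0.72) and Strn3 (-1.34), which is a phosphatase scaffold rather than an RNA processing factor.

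All 24 tested genes of protein quality control and trafficking were lower, with a median of -0.97, and 20 of them lay within 0.25 of the median of the stretch. The extremes were the vesicle fusion regulator Scfd1 (-1.33) and the proteasome subunit Psma3 (-1.24) on one side and the chaperone Hspa2 (-0.56) on the other. All 31 tested genes of metabolism and transport were lower as well (median -0.96). Beside Nubpl and Acot2, given below, the retinol dehydrogenase Rdh12 was at 50.4, 53.4 and 49.95 CPM in WT, 36.9, 32.5 and 33.3 in PN and 12.2, 11.02 and 11.7 in PCN (-1.55), a difference beyond the common shift.

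Of 38 transcription factors of the stretch, 23 were listed and 19 tested, with a median of -0.59, 15 called lower, 1 higher and 3 not called. The aryl hydrocarbon receptor Ahr (-1.01), the MYC partner Max (-0.94) and Foxa1 (-0.87) were near the median of the stretch, and Hif1a was at -0.59. Six4, a homeobox factor, had 10.4, 14.8 and 13.8 CPM in WT, 2.55, 3.36 and 3.23 in PN and 2.67, 2.47 and 3.11 in PCN, low in both edited groups and overlapping between them. Ahr, Max and Foxa1 were picked after their values were seen. Of 19 tested genes of adhesion, matrix and cytoskeleton, 15 were called lower and 1 higher (median -0.86), and of 18 growth factor and signalling genes 17 lower and 1 higher (median -0.99). Arhgap5, a GTPase-activating protein and the most abundant of the signalling list, had 170.3, 192 and 235 CPM in WT, 203, 206 and 229 in PN and 81.2, 84.3 and 72.2 in PCN (-1.43). Of 6 tested genes of hypoxia, inflammation and interferon, 5 were called lower (median -0.89) and Nfkbia was not called.

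Departures from the common shift were counted where a member's log2 fold change lay more than 1 from the median of the stretch and where, once that median was removed, the libraries of the 2 groups did not overlap. By that count 21 of 288 members (7.29%) departed in PCN against PN, 11 upward and 10 downward, and 8.93% of the genes of the other autosomes departed from their own median (5.69% upward and 3.24% downward). Among the genes of the authors' table for this pair alone it was 15 of 269 members (5.58%), 5 upward and 10 downward. In the other autosomes the share was then 16.6%. With only members of at least 5 CPM on average, the count was 9, so most departures were of genes with few reads. The rule for naming took the 6 furthest on each side among protein-coding genes that reached 5 CPM in one of the groups, and did not ask for a distance of 1.

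Papln lay furthest above the shift among these. It encodes papilin, a secreted matrix protein. Its level was 8.15, 10.5 and 8.88 CPM in WT, 4.80, 5.77 and 4.97 in PN and 13.1, 14.2 and 12.5 in PCN, so that it was lowest in PN and highest in PCN with no overlap. The log2 fold change was 1.35 ± 0.14, which is 2.26 above the median. Without 1 library at a time that departure ranged from 2.20 to 2.35.

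Id2, an inhibitor of basic helix-loop-helix transcription factors, had 112, 95.4 and 113 CPM in WT, 57.96, 52.7 and 56.4 in PN and 60.2, 67.2 and 69.8 in PCN. All PCN libraries were above all PN libraries and below all WT libraries, with 0.24 ± 0.06 for PCN against PN. Nfkbia encodes IκBα, the inhibitor that NF-kB itself induces. It had 83.8, 76.6 and 73.1 CPM in WT, 125, 115 and 118 in PN and 114, 124 and 126 in PCN. Both edited groups were above WT and overlapped each other, with 0.02 ± 0.05.

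Kif3c, a kinesin motor subunit, had 12.8, 12.04 and 13.6 CPM in WT, 4.63, 4.89 and 4.71 in PN and 4.90, 6.37 and 3.97 in PCN, low in both edited groups and overlapping between them (0.10 ± 0.19). Grhl1, a grainyhead factor of epithelial differentiation, had 81.02, 87.6 and 86.5 CPM in WT, 20.9, 18.7 and 21.8 in PN and 17.03, 19.5 and 17.99 in PCN. Its PCN and PN libraries overlapped (-0.18 ± 0.10) and both groups were far below WT. Fos, an immediate early gene and AP-1 subunit, had 42.6, 41.8 and 42.7 CPM in WT, 22.5, 21.4 and 21.5 in PN and 19.8, 18.5 and 16.3 in PCN (-0.26 ± 0.10), lower in PCN by less than the common shift. Of these 6 members, all but Nfkbia were lower in PN than in WT.

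**Figure D5:**
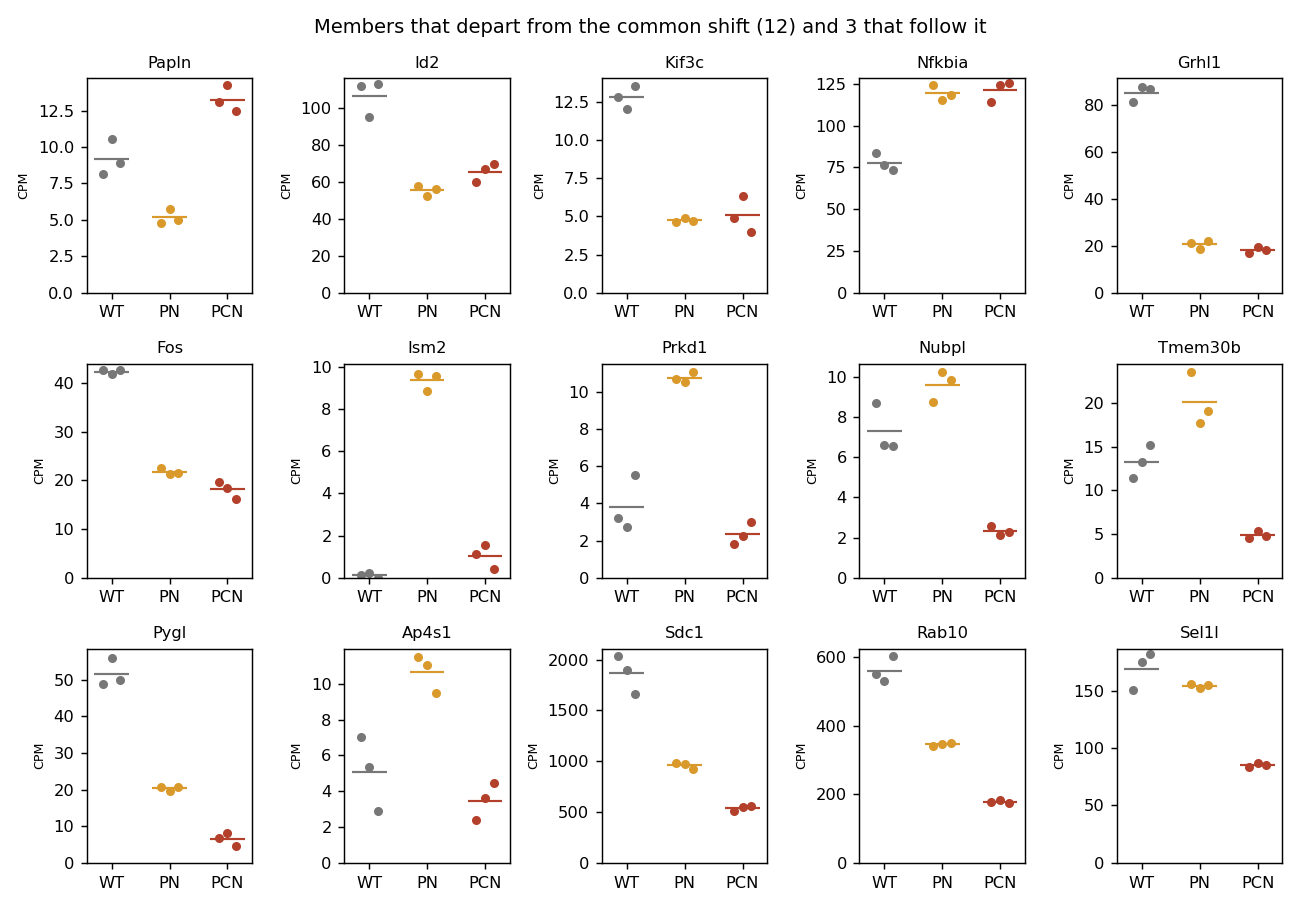
Level per library in CPM (y axis, starting at 0, own scale in each panel) by group (x axis) for the 12 named departures of PCN against PN and for Sdc1, Rab10 and Sel1l, which follow the shift. Points are libraries and lines group means. Papln is highest in PCN, Nfkbia is as high in PCN as in PN, and Ism2, Prkd1, Nubpl, Tmem30b and Ap4s1 are highest in PN.

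Below the shift, Ism2 was the furthest named gene. It encodes isthmin-2, a secreted protein. It had 0.134, 0.204 and 0 CPM in WT, 9.67, 8.83 and 9.57 in PN and 1.14, 1.55 and 0.430 in PCN, nearly absent in WT and high in PN alone. The log2 fold change was -3.17 ± 0.27 for PCN against PN. Prkd1, protein kinase D1, had 3.21, 2.72 and 5.50 CPM in WT, 10.7, 10.5 and 11.1 in PN and 1.83, 2.24 and 3.01 in PCN, again high in PN alone (-2.19 ± 0.18).

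Nubpl, an assembly factor of mitochondrial complex I, had 8.68, 6.60 and 6.56 CPM in WT, 8.72, 10.2 and 9.83 in PN and 2.57, 2.12 and 2.26 in PCN (-2.04 ± 0.18). Tmem30b, a partner subunit of lipid flippases, had 11.4, 13.2 and 15.2 CPM in WT, 23.6, 17.7 and 19.1 in PN and 4.60, 5.34 and 4.78 in PCN (-2.04 ± 0.14). Both had PCN libraries below all WT libraries. Ap4s1, a subunit of the adaptor complex AP-4, had 7.01, 5.38 and 2.92 CPM in WT, 11.5, 11.1 and 9.46 in PN and 2.38, 3.62 and 4.46 in PCN, overlapping between PCN and WT (-1.62 ± 0.18). Pygl, liver-type glycogen phosphorylase, had 48.8, 55.9 and 50.1 CPM in WT, 20.6, 19.7 and 20.8 in PN and 6.83, 8.04 and 4.51 in PCN. It was lower at each step (-1.66 ± 0.14 for PCN against PN), unlike the other 5 of this group, which were higher in PN than in WT by their means.

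Members under 5 CPM made up most of the other departures, of which Sostdc1 and Abhd12b were picked after their values were seen. Upward lay Sostdc1, a secreted antagonist of BMP and Wnt signalling, with 1.25, 1.18 and 1.37 CPM in PN and 4.31, 4.02 and 5.10 in PCN (1.81 ± 0.26), and Tgfb3, a TGF-beta ligand, with 0.771, 0.648 and 0.159 in PN and 1.34, 1.21 and 1.34 in PCN (1.32 ± 0.44). Both were counted from few reads. The AP-1 family repressor Jdp2 (0.40) and Syt16 (0.62) were also counted upward. Downward lay Nrcam, a neuronal cell adhesion molecule, with 1.78, 2.83 and 2.43 CPM in PN and 0.0495, 0.0574 and 0.215 in PCN (-4.37 ± 0.72), Abhd12b (-2.91), the mitochondrial arginase Arg2 (-2.74) and the acyl-CoA thioesterase Acot2 (-2.56), a member of a cluster of near-identical genes.

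A pair of long noncoding RNAs, also picked after their values were seen, were the furthest departures of all. Gm26520 had 82 counts over the 3 PN libraries and 0 over the 3 PCN libraries, at least 29.1-fold lower against a floor of 3 counts over the group. Gm10451 had 175 counts in PN and 1 in PCN, a ratio of 187 with a 95% counting interval of 33.1 to 7411. Its PN libraries had 2.61, 3.24 and 4.02 CPM and its WT libraries 7.08, 7.15 and 8.15 CPM. The interval covers counting error only.

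By transcript type, the 268 tested protein-coding members had a median of -0.90 in PCN against PN, 13 other transcripts -1.17 and 7 pseudogenes -0.11. Rpl17-ps3, the most abundant of the pseudogenes and a copy of a ribosomal protein gene, had 478, 495 and 821 CPM in WT, 262, 277 and 250.4 in PN and 235, 275 and 222 in PCN (-0.11 ± 0.07). PCN and PN overlapped there, and WT replicate 3 was well above the other WT libraries. Bnip3l-ps (0.57) and Gm4294 (0.23) were among the upward departures, while Zfp125 (-1.08) was not. Processed pseudogenes can take reads of their parent genes elsewhere in the genome, so their values are uncertain. The same holds for 2 antisense transcripts counted upward, Rab10os (0.48), which overlaps Rab10 (-0.95), and Gm15283 (0.11), which overlaps Hif1a (-0.59), because the strand setting of the counting is not given in the sources used here. Apart from Rpl17-ps3 and Rab10os, the transcripts named here were picked after their values were seen.

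Between PN and WT the stretch as a set moved little against the other autosomes together. Of 304 members with counts in both, 290 passed the filter, 14 did not, and 27 stand in no table with counts for both. Their median log2 fold change, PN over WT, was -0.11 (quartiles -0.56 and 0.20), that of the other autosomes -0.10 and that of the genes after 95 Mb 0.27, so the shift was -0.01. The sign of so small a shift was not stable, and without WT replicate 3 it was 0.05. Its size also depended on the reference, as given with the alternatives at the end. Medians of single other autosomes ranged from -0.57 to 0.34 in this pair. The fit called 160 members, 59 higher and 101 lower, where 88.6% of all genes tested were called, 42.6% higher and 46% lower. All PN libraries lay below all WT libraries for 117 members and above them for 74, against 46.6% and 44% of all genes tested. Without WT replicate 3 the fit called 184, 76 higher and 108 lower. Departures numbered 49 (16.9%), 12 upward and 37 downward, compared with 26% of the genes of the other autosomes (8.25% upward and 17.7% downward). Without WT replicate 3 they were 44, 9 upward and 35 downward. Both the comparison with the other autosomes and the balance of directions turned when only genes of the authors' table for this pair were used. Then 58 of 153 members (37.9%) departed, 34 upward (22.2%) and 24 downward (15.7%), around a median of -0.50. In the other autosomes the share was 31.0% (14.1% upward and 16.8% downward). Of the 331 members 167 were listed for this pair, and of the 8017 genes of the other autosomes 6091. The counts with all listed genes depend on that listing.

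Of the protein-coding members that reached 5 CPM in one of these groups, those furthest up in PN were Ism2 and Prkd1, given above (6.29 and 1.49), Lrr1 and Ap4s1. Under that level, Abhd12b (6.01), Nrcam (2.30) and Arg2 (1.71), picked after their values were seen, lay above Prkd1. Without WT replicate 3, Ism2 was at 5.73 and Prkd1 at 1.86, and Ap4s1 lay 0.83 above the median of the stretch, where it lay 1.17 above it with all libraries. Ism2 had 0 counts in WT replicate 3 and few in the others, so its fold change is imprecise. Lrr1, a substrate adaptor of a ubiquitin ligase, had 3.34, 2.79 and 2.92 CPM in WT, 8.07, 7.19 and 9.46 in PN and 3.76, 6.43 and 3.71 in PCN, high in PN and 1.45 ± 0.19 against WT. Furthest down by the same rule was Tgfb3, at 11.2, 13.2 and 11.3 CPM in WT and as above in PN (-4.51 ± 0.38). Syt16 had 9.02, 9.12 and 9.94 CPM in WT and 0.712, 0.707 and 0.529 in PN. Fam84a had 40.5, 47.6 and 40.9 CPM in WT, 8.07, 7.60 and 8.35 in PN and 4.01, 3.62 and 5.80 in PCN, and it was lower at each step. L3hypdh, a dehydratase of hydroxyproline breakdown, had 7.48, 8.44 and 6.16 CPM in WT, 0.830, 0.766 and 0.899 in PN and 0.0990, 0.459 and 0.376 in PCN.

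The role lists are given for this pair as counts, and no difference between lists was tested. Over all genes tested 42.6% were called higher and 46% lower, and over the 290 tested members 20.3% and 34.8%. Of 16 tested cell cycle and DNA repair genes, 8 were called higher in PN and 1 lower, with a median of 0.28, among them Fancm (1.05), a DNA translocase of the Fanconi anaemia pathway, and Rrm2 (0.91). Of 13 chromatin regulators, 4 were called higher and 1 lower (median 0.17). Of 20 transcription factors, 1 was called higher, Hif1a (0.63), and 12 lower, with a median of -0.60. Of 20 genes of adhesion, matrix and cytoskeleton, 2 were called higher and 14 lower (median -0.40). The counts for the other lists were 3 higher and 2 lower of 12 for translation (median 0.03), 5 and 2 of 13 for RNA processing (0.02), 4 and 6 of 24 for quality control and trafficking (-0.13), 3 and 6 of 17 for signalling (-0.19), 2 and 2 of 6 for hypoxia, inflammation and interferon (0.07), and 9 and 10 of 31 for metabolism and transport (0.03). Medians of lists lay on both sides of 0 in PN against WT, while all 10 were below 0 in PCN against PN, where the stretch as a whole was lower. Without WT replicate 3 the median in PN against WT was 0.40 for cell cycle and DNA repair (again 8 higher and 1 lower), 0.17 for chromatin regulators, -0.57 for transcription factors and -0.37 for adhesion, matrix and cytoskeleton. In the same order as above, the other lists then had 0.07, 0.07, -0.08, -0.03, 0.24 and -0.06, so that only the median of metabolism and transport changed sign.

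Some developmental regulators had counts in WT and none in PN, and the one given here was picked after its values were seen. Twist1, a mesenchymal basic helix-loop-helix factor, had 3.34, 3.54 and 2.65 CPM in WT and 0 counts in PN, at least 55.8-fold lower, and 1 count in PCN, a ratio of 178 to WT with a 95% counting interval of 31.5 to 7096. Nothing can be read of such a gene between PCN and PN. The summed epithelial markers, given above, also differed between WT and both edited groups, and their part in these values was not tested.

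Between PCN and WT the members again lay below the rest. Of 318 members with counts in both, 298 passed the filter, 20 did not, and 13 stand in no table with counts for both. Their median log2 fold change, PCN over WT, was -1.002 (quartiles -1.41 and -0.73), a ratio of 0.499, against -0.0014 for the other autosomes and 0.38 for the genes after 95 Mb. The shift was -1.0005, and -0.95 without WT replicate 3. The fit called 277 members, 274 lower and 3 higher, where 89.6% of all genes tested were called, 46.7% lower and 42.9% higher, and without WT replicate 3 it called 283. All PCN libraries lay below all WT libraries for 279 members and above them for 4, against 46.9% and 44.1% of all genes tested. This pair shares its PCN libraries with the comparison to PN and its WT libraries with the comparison of PN to WT, so the 3 sets of values are not independent.

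Around that median the members were spread more widely than in PCN against PN, with 38.3% within 0.25 of it against 60.8%. In the other autosomes the corresponding shares were 10.2% and 54.6%. Only genes called changed are listed, and in PCN against WT few genes of the other autosomes lay near 0, where their median (-0.0014) was. The bins of 0.25 just below and just above 0 held 4.72% and 5.44% of them. The next bins outward held 11.2% and 17.6%. The median of the members lay away from this gap. Nothing is therefore read from the 10.2%, or from the share of departures in the other autosomes given next. Departures numbered 40 (13.4%), 10 upward and 30 downward, compared with 27.4% in the other autosomes (8.74% upward and 18.7% downward). They were 51, 11 upward and 40 downward, without WT replicate 3, and 31, 3 upward and 28 downward, among the genes of the authors' table for this pair. Only 10 members had a fold change above 0, and 3 of these were called higher: Nfkbia (0.64 ± 0.08), Papln (0.53 ± 0.15) and the sparsely counted Sostdc1 (2.82 ± 0.37). Without WT replicate 3, 5 members were called higher.

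Some members with PCN levels overlapping those of WT were higher in PN. Fancm had 13.9, 14.6 and 16.8 CPM in WT, 31.9, 28.9 and 33.4 in PN and 16.3, 19.1 and 16.3 in PCN. Cep128, a centriole protein, had 11.6, 9.80 and 12.5 CPM in WT, 19.6, 20.7 and 21.6 in PN and 14.9, 13.2 and 11.4 in PCN. For Fancm and Cep128 the WT and PCN ranges overlapped (0.19 and 0.22) and the PN range lay above both. Rrm2 (0.07) and Hif1a (0.03) had the same order. Of the 16 tested cell cycle and DNA repair genes, 11 were called lower in PCN than in WT and none higher, with a median of -0.54.

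The lists furthest below 0 in this pair were adhesion, matrix and cytoskeleton (17 lower, 1 higher of 19, median -1.28), transcription factors (19 lower of 20, median -1.10) and signalling (15 lower of 16, median -1.07). All 32 tested genes of metabolism and transport were called lower (median -0.996), and 23 of 24 of quality control and trafficking (-1.01). Of all 298 tested members, 91.9% were called lower. Of the remaining lists, 12 of 13 chromatin regulators (-0.76), 12 of 13 translation genes (-0.97), 10 of 12 RNA processing genes (-0.66) and 4 of 5 genes of hypoxia, inflammation and interferon (-1.03) were lower. Without WT replicate 3 every list median in this pair stayed below 0, from -1.21 for adhesion, matrix and cytoskeleton to -0.41 for cell cycle and DNA repair. Among protein-coding members that reached 5 CPM in one of these groups, those furthest below the median were L3hypdh (-4.57 ± 0.45), Fam84a (-3.26 ± 0.16), Syt16 (-3.22 ± 0.23) and Tgfb3 (-3.19 ± 0.21), all of which were already low in PN.

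The threshold was chosen with these values known, and no listed gene lies between the last member and the first gene after it. The last members inside were Ston2, an endocytic adaptor, with 219, 236 and 224 CPM in PN and 123, 129 and 122 in PCN (-0.86), Gm8378, which did not pass the filter in PCN against PN and lies within Ston2, and Sel1l (-0.86), which ends at 91849157. The first listed gene outside, Flrt2, starts at 95692226. It encodes a fibronectin leucine-rich repeat membrane protein and had 5.69, 5.95 and 5.34 CPM in PN and 3.56, 3.67 and 3.33 in PCN (-0.68), all PCN libraries below all PN libraries. The next were Gm6863, with 60.8, 58.5 and 53.4 CPM in PN and 45.7, 47.8 and 46.8 in PCN (-0.30), and Galc, the lysosomal galactosylceramidase, with 16.9, 16.5 and 18.6 CPM in PN and 15.002, 15.9 and 14.2 in PCN (-0.21). All 3 were lower in PCN than in PN, though Galc was not called, and Flrt2 was nearer to the median of the stretch than to that of the genes after it. These genes were also lower in PN than in WT. Mean levels in WT and PN were 9.51 and 5.66 CPM for Flrt2, 78.2 and 57.6 for Gm6863, and 27.0 and 17.4 for Galc.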

How the data were processed

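Bulk RNA from 9 organoid libraries, 3 per group, was analysed. CASAVA, DESeq and GRCm38 (mm10) stand in the submitters' processing notes. The sources used here do not name the aligner, the counter, its strand setting or the annotation. The 3 deposited tables hold, per the file headers, the authors' raw counts, a normalized signal (counts over a size factor), FPKM, a log2 fold change, a p-value with its adjusted form, and gene positions and lengths. They list only genes with an adjusted p under 0.05, 3609 for PCN against PN, 6544 for PN against WT and 6678 for PCN against WT. The members, the gene lists and the rule for named genes were chosen with earlier results of these data known.

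Library totals were recovered from counts, FPKM and length, and used as offsets. Every listed gene with counts in both groups of a pair was fitted in edgeR 4.0.16 (R 4.3.3; filterByExpr by group, quasi-likelihood test), with Benjamini-Hochberg adjustment over the 14758, 17165 and 17300 genes the authors adjusted over in PCN against PN, PN against WT and PCN against WT, and a threshold of 0.05. The biological coefficients of variation were 0.0514, 0.0883 and 0.0917. The standard errors come from the same fit. It was tried on simulated counts with the same coefficient of variation for every gene and 200 changed genes. In the data most tested genes were called, so that simulation does not show how good the standard errors are here. The shift is the median log2 fold change of the members minus that of the other autosomes. Genes with 0 counts in a group are given as bounds against 3 counts over the group.

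Named genes were the 6 furthest departures each way in PCN against PN and the 4 furthest each way in the other pairs (protein-coding, at least 5 CPM in the higher group, no overlap once the median was removed, no predicted symbols), the 8 most abundant members, the 3 genes on either side of the threshold, the first 2 members, and in each list up to 3 furthest departures and the most abundant gene. Coordinates are the authors', and all 331 identifiers stand in GENCODE M21 with the same coordinates. Over 5621 genes, the deviations of same-numbered libraries from their group means correlated at 0.249, 0.136 and 0.238 in PN against WT. Whether the label numbers pair these libraries is not stated, and the main fit did not pair them. The same correlations were -0.105, -0.109 and -0.148 in PCN against PN and -0.192, -0.136 and -0.325 in PCN against WT. In both of these pairs every library matched best with one of another number, so a match alone does not establish pairing. Alternatives were other scalings, filters, gene sets and references, DESeq2 1.42.0, a replicate block and each library left out.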

Additional observations from a re-analysis of the deposited data

How the results depend on the processing

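The shifts of PCN against PN and PCN against WT stayed below 0 under every alternative. Against chromosome 12 genes after 95 Mb the shifts of PCN against PN, PN against WT and PCN against WT were -0.97, -0.38 and -1.38, and with only the authors' table of the pair -1.12, -0.23 and -0.83, where the reference itself lies off 0. With chromosome 14 left out of the reference they were -0.90 in PCN against PN and -0.14 in PN against WT, and with at least 5 CPM -0.91 and -0.13. The PN against WT shift of -0.01 was 0.0036 with no filter and 0.043 with only genes counted in all 9 libraries, so its sign is not fixed. With only genes listed for PN against WT, an alternative chosen after seeing the data, the shift was -0.90 in PCN against PN and -1.21 in PCN against WT. Leaving out each library in turn gave shifts of -0.93 to -0.91, -0.023 to 0.049 and -1.04 to -0.95.

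Departures numbered 9, 27 and 24 with at least 5 CPM and 33, 93 and 81 where a departure of 1.5 times was enough, compared with 21, 49 and 40. With only the authors' table of the pair they were 15, 58 and 31, and the upward ones 5, 34 and 3 where they had been 11, 12 and 10. With each library left out they ranged over 20 to 24, 44 to 54 and 40 to 51, and the members called over 266 to 270, 141 to 184 and 268 to 283. DESeq2 called 270, 159 and 279. With the replicate block the shifts were -0.92, -0.01 and -1.003, the members called 269, 170 and 276 and those departing 20, 49 and 40, and it moved no count by more than 1.5 times. The library level of the members in PCN, -0.94, was -0.98 with a pseudocount of 0.1 CPM and -0.83 with 2 CPM, and that of PN, 0.05, was 0.034 with 2 CPM. Departures of named genes kept their sign in all 354 recomputed values. Few reads limit the values of members under 5 CPM.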
